A study of Homo sapiens with 6 samples.

Results

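The 10 genes described here make, recycle or break down glutathione, or belong to the antioxidant defence that the transcription factor NRF2 controls. They are GCLC, GCLM, GSS, GSR, CHAC1, HMOX1, NQO1, SRXN1, TXNRD1 and GPX4. They were matched by gene symbol, and all 10 were found among the 31369 genes of the count table. RNA was sequenced from HK-2, an immortalised cell line derived from the proximal tubule of a human kidney, in 3 control samples (NC, genotype entry WT) and 3 samples with a plasmid carrying *PPM1K* (OE, genotype entry *PPM1K* overexpress). PPM1K is a mitochondrial phosphatase that activates the breakdown of branched-chain amino acids. All 6 samples share the time entry day 10 and a treatment entry naming chronic kidney disease. The cell type entry reads HK-2 in all samples, but the cell line entries carry a different number after HK in each. The sample titles name a control and a *PPM1K* short hairpin, and what the control cells were transfected with is not given in the sources used here.

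Glutathione is a small thiol built from glutamate, cysteine and glycine. Glutamate-cysteine ligase, a catalytic subunit (GCLC) with a modifier subunit (GCLM), makes the first bond and sets the rate, and glutathione synthetase (GSS) completes the molecule. Glutathione reductase (GSR) returns the oxidised form to the reduced form, and CHAC1 cleaves reduced glutathione inside the cell. NRF2 is held at a low level by KEAP1 and, when released, binds antioxidant response elements in DNA together with small MAF proteins. Proximal tubule cells meet a high oxidant load and are known for an active glutathione turnover.

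Short stretches of DNA are shown for 4 genes that the results below turn on. They lie in the 1000 bases before gene starts listed by RefSeq on GRCh38.p14, which held 10 starts for 7 of the 10 genes. GSR, GSS and HMOX1 have no entry. The antioxidant response element core was searched as TGACNNNGC on both strands, and a composite element of C/EBP and ATF factors as TGATGNAA on both strands. Each stretch runs 5′ to 3′ along the gene's own strand, with the match in capitals. NQO1 and TXNRD1 rose in OE, GCLM has its match close to its start and did not pass the test, and CHAC1 holds the composite element.
NQO1: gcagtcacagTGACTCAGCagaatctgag
TXNRD1: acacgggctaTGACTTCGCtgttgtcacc
GCLM: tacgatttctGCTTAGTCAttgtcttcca
CHAC1: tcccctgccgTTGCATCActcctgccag

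The capitals of NQO1 cover chr16:69727007-69727015 on the minus strand, begin 455 bases before the start, lie upstream of the annotated gene and overlap an AP-1 site (TGANTCA). Those of TXNRD1 cover chr12:104215680-104215688 on the plus strand, 99 bases before its first start and upstream of the gene. GCLM has its match on the opposite strand, at chr1:93909456-93909464 and 34 bases before the start, at the edge of an untranslated first exon of some transcripts. The composite element of CHAC1, also a match on the opposite strand, covers chr15:40953262-40953269, 209 bases before the start, where GENCODE release 44 has an untranslated exon of some transcripts. Of the 10 starts, 8 had an antioxidant response element core, against 31.9% of 35116 RefSeq starts. The matches belong to 6 genes, CHAC1, GCLC, GCLM, GPX4, NQO1 and TXNRD1, and 2 starts of GPX4 share a single site. SRXN1 had no match to the core as searched in this window, only an AP-1 site 272 bases before its start. The bases there read TGAGTCAGC, which begins with TGAG where the searched core has TGAC and otherwise fits it. Variants of the core were not searched, so the lack of a match does not show that SRXN1 lacks the element. CHAC1 was the only gene of the 7 with the composite element, which 13% of all starts hold. AP-1 sites preceded 6 of the 10 starts and 22.6% of all starts.

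**Figure D1:**
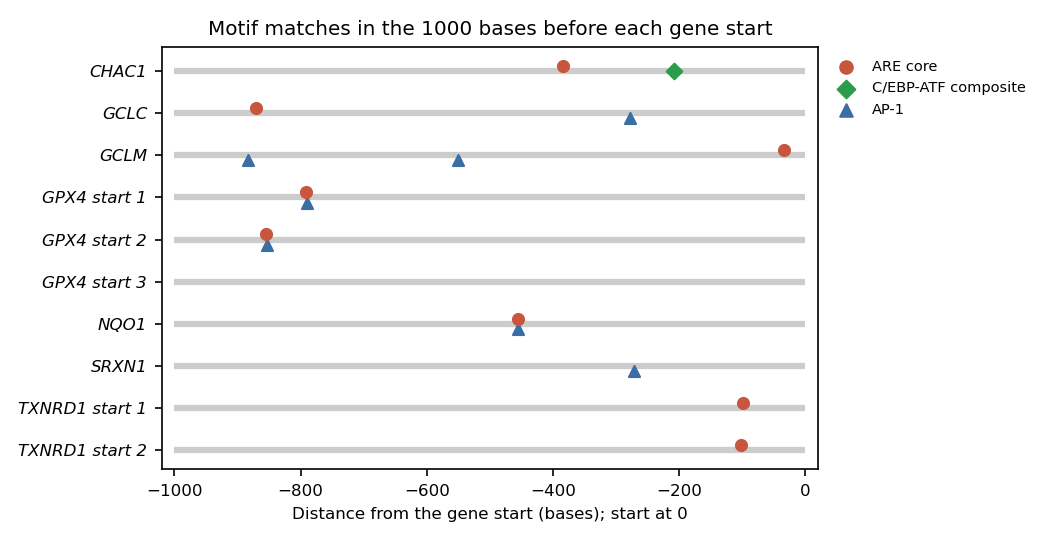
Position of motif matches in the 1000 bases before each of 10 RefSeq gene starts, in bases from the start at 0, with a row for each start and a symbol for each motif. The antioxidant response element (ARE) cores of TXNRD1 lie 99 and 102 bases before its 2 starts, and the composite element of CHAC1 lies 209 bases before its start.

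In the count table, *PPM1K* had 37, 19 and 53 counts in NC and 3294, 3531 and 2919 in OE, a log2 fold change of 6.39, so the samples followed their genotype entries. Total counts were 34635770 to 39850802 per sample. NC replicate 2 stood apart: it alone had counts for 3551 genes, where the other samples each had 449 to 766 such genes. In the study's read distribution it also had the largest shares of intronic, intergenic and antisense reads and the smallest of coding reads. Among the markers of kidney tubule, 8 of 10 genes of renal epithelial lines, such as PAX8 and KRT18, reached an FPKM of 1, but none of the 7 mature proximal tubule markers in the count table did, LRP2 and SLC34A1 among them. Their summed FPKM was 0.21 to 0.35 in NC and 0.18 to 0.20 in OE. None of 5 endothelial markers and of the 4 leukocyte markers in the count table reached an FPKM of 1, while 2 of 6 fibroblast markers did, COL1A1 and LUM, and the fibroblast sum was 2.94 to 3.10 in NC and 1.10 to 1.15 in OE. The part of these differences in the results below was not tested. In such bulk RNA, fewer cells of a type and less RNA per cell cannot be told apart.

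Of the 10, 6 rose in OE, namely CHAC1, TXNRD1, NQO1, SRXN1, GSS and GPX4, and GSR fell. GCLC, GCLM and HMOX1 did not pass the test. The test was edgeR's quasi-likelihood test on counts with Benjamini-Hochberg adjustment over 15878 genes, and a gene rose or fell where the adjusted p was under 0.05. At that threshold 24.9% of all tested genes were higher and 23.7% lower in OE. With the added demand of a fold change above 2 or below 0.5, the study's definition of a differentially expressed gene, CHAC1 alone was called higher and none lower, where 1.73% of all tested genes were called higher and 3.79% lower. The CPM of OE lay above that of NC without overlap for 5 of the 10 genes and below it for GSR. Among all tested genes those shares were 28.2% and 27.1%. CPM is the count scaled by edgeR to library size. The median log2 fold change of the 10 genes was 0.18, and that of all tested genes was −0.0032. The study's text speaks of biological replication, but no source used here says that the 3 samples of a group came from separate cultures, so the p-values measure the spread between these samples. For any single gene an exact permutation of 3 against 3 samples cannot give a p below 0.1.

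**Figure D2:**
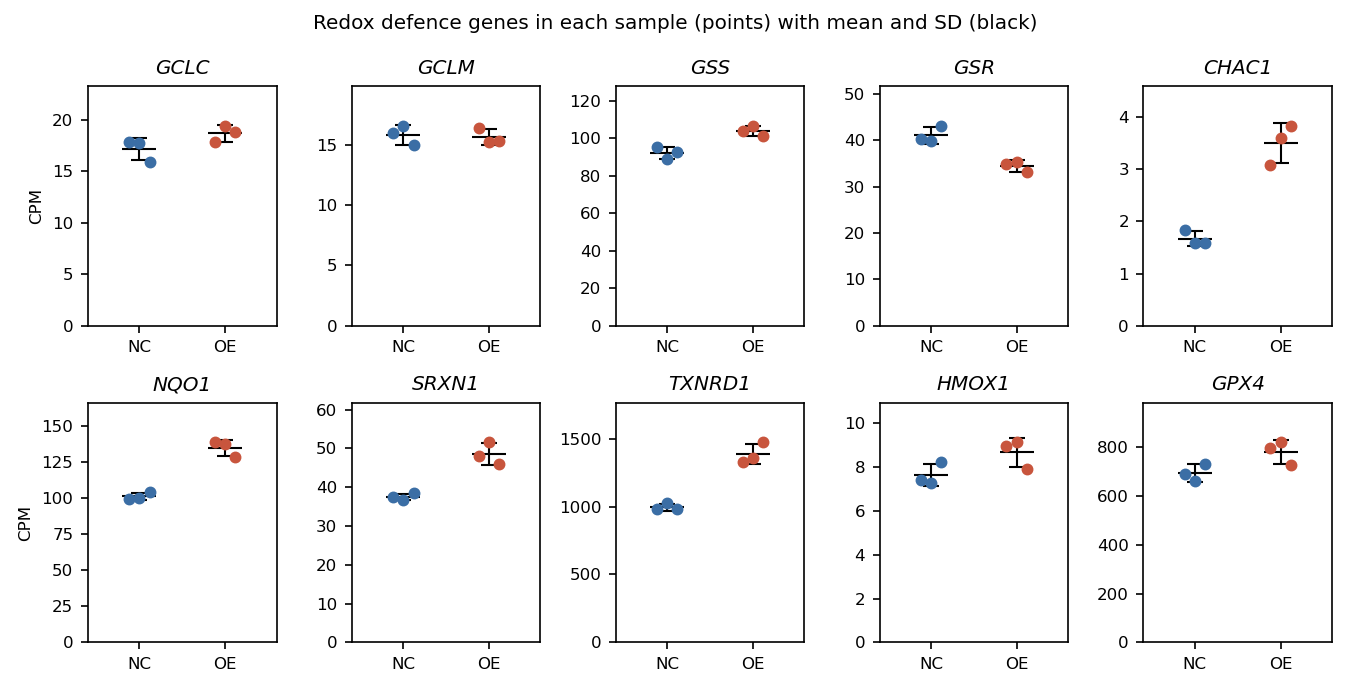
CPM (counts scaled to the TMM-normalized library size, axis from 0) of each redox defence gene in the 3 NC and 3 OE samples, with the mean and SD in black. OE lies above NC without overlap for CHAC1, NQO1, SRXN1, TXNRD1 and GSS and below it for GSR, and the samples overlap for GCLC, GCLM, HMOX1 and GPX4.

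CHAC1, the enzyme that cleaves glutathione, had the largest fold change of the 10 genes and the lowest level in FPKM. It was counted 64, 56 and 57 times in the NC samples and 114, 142 and 139 times in the OE samples. Every OE sample was above every NC sample in CPM, at 3.09 to 3.83 against 1.59 to 1.84. The log2 fold change was 1.07 ± 0.17 (SE, edgeR, adjusted p = 2.7e-05), a fold change of 2.09. This lay just past the 2-fold limit. Without OE replicate 3 the log2 fold change was 0.996, and the gene was then no longer called, although its adjusted p was 0.00014. A test against a change of 2-fold, in place of no change, gave an adjusted p of 1.0 (edgeR's glmTreat). The gene spans 40952962 to 40956512 on chromosome 15 and overlaps no other annotated gene.

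The close relative CHAC2, which also cleaves glutathione, rose less, from a CPM of 5.98 ± 0.434 (SD, n = 3) in NC to 8.0 ± 0.41 in OE. The genes whose CPM followed CHAC1 most closely over the 6 samples were DNER (Pearson's r of log2 CPM 0.999), AC098614.2 (0.998) and MGLL (0.998), out of 11771 genes whose mean count reached 100. The 6 points share the difference between the groups, so these values are a description.

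The ligase subunits that open glutathione synthesis did not pass the test. GCLC had a CPM of 17.9, 17.7 and 15.9 in NC and 17.8, 19.4 and 18.8 in OE. Its samples overlapped, and the log2 fold change was 0.12 (edgeR, adjusted p = 0.21), with 2 standard errors on either side reaching from −0.04 to 0.28. For GCLM the CPM was 15.9, 16.5 and 14.9 in NC and 16.4, 15.2 and 15.3 in OE. The groups interleaved here too, with a log2 fold change of −0.02 (edgeR, adjusted p = 0.88, range −0.18 to 0.14) whose sign turned without NC replicate 2, at 0.02, and without OE replicate 2, at 0.01. The FPKM of GCLM over that of GCLC was 1.47 ± 0.0398 (SD, n = 3) in NC and 1.33 ± 0.116 in OE, with p = 0.2 in the exact permutation test (two-sided). FPKM is the fragment count scaled to transcript length and library size, and lets genes of different length be compared. GCLC (chromosome 6, 53497341 to 53616970) overlaps 3 annotated genes, 1 of them on its own strand, and GCLM (chromosome 1, 93885199 to 93909456) overlaps none.

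The synthetase and the reductase moved in opposite directions. GSS, which joins glycine to the dipeptide, had a CPM of 95.4, 89.1 and 92.5 in NC and 104, 107 and 101 in OE. The groups did not overlap, and the gene rose by 12.5%, a log2 fold change of 0.17 ± 0.05 (SE, edgeR, adjusted p = 0.0083). GSR, which spends NADPH to regenerate reduced glutathione, had a CPM of 40.3, 39.7 and 43.0 in NC and 34.9, 35.4 and 33.0 in OE. Each OE sample was below each NC sample, and the log2 fold change was −0.25 ± 0.06 (SE, edgeR, adjusted p = 0.0025). GSR alone among the 10 genes fell, and with each sample left out its log2 fold change stayed between −0.27 and −0.21. GSS lies on chromosome 20 from 34928432 to 34956027 and overlaps MYH7B, a gene on the other strand. Whether the authors' counting used strand is not stated, so reads of overlapping genes may not have been told apart.

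The NRF2 targets TXNRD1, NQO1 and SRXN1 all rose. TXNRD1, the cytosolic selenoenzyme that reduces thioredoxin, was counted 34251, 36005 and 35184 times in NC and 49132, 53736 and 53469 times in OE. In CPM it was 995 ± 24.2 (SD, n = 3) in NC and 1387 ± 74.7 in OE, with no overlap, and the log2 fold change was 0.48 ± 0.05 (SE, edgeR, adjusted p = 2.5e-07). NQO1, which reduces quinones by a pair of electrons and is a common readout of NRF2, had a CPM of 99.4, 100.4 and 104 in NC and 139, 138 and 129 in OE. All OE samples were higher, and the log2 fold change was 0.41 ± 0.05 (SE, edgeR, adjusted p = 8.5e-07). SRXN1, sulfiredoxin, which repairs over-oxidised peroxiredoxins, had a CPM of 37.5, 36.7 and 38.4 in NC and 47.9, 51.5 and 45.9 in OE. It rose by 29.2% with a log2 fold change of 0.37 ± 0.06 (SE, edgeR, adjusted p = 4.2e-05). The log2 fold changes of TXNRD1, NQO1 and SRXN1, with their standard errors, lay close to each other, and their differences were not tested. TXNRD1 (chromosome 12, 104215779 to 104350307) overlaps 3 annotated genes, the pseudogene RPL18AP3 among them, and 2 of the 3 lie on its own strand. NQO1 (chromosome 16, 69706996 to 69726668) overlaps 1 on the other strand, and SRXN1 (chromosome 20, 646615 to 653200) overlaps 1 on its own strand. Strand alone does not tell apart reads of genes on the same strand.

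HMOX1, haem oxygenase 1, is also an NRF2 target, and releases iron, biliverdin and carbon monoxide from haem. Its CPM was 7.41, 7.27 and 8.23 in NC and 8.96, 9.13 and 7.93 in OE. OE replicate 3 lay below NC replicate 3, so the groups overlapped. The log2 fold change was 0.18 ± 0.10 (SE, edgeR, adjusted p = 0.16), with 2 standard errors reaching from −0.03 to 0.39. That range includes the log2 fold change of SRXN1, and the differences between HMOX1 and each of TXNRD1, NQO1 and SRXN1 were not tested. HMOX1 spans 35380361 to 35394214 on chromosome 22.

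GPX4, the selenoenzyme that uses glutathione to reduce lipid hydroperoxides in membranes, was the most abundant of the 10 genes in FPKM. It had a CPM of 689, 659 and 733 in NC and 795, 819 and 725 in OE. OE replicate 3 fell within the NC range. The gene passed the test with a log2 fold change of 0.17 ± 0.06 (SE, edgeR, adjusted p = 0.018). This call did not hold when NC replicate 1, NC replicate 2, OE replicate 1 or OE replicate 2 was left out, with log2 fold changes of 0.17, 0.13, 0.16 and 0.13 and adjusted p of 0.052, 0.076, 0.055 and 0.11. With upper quartile scaling the adjusted p was 0.07. GPX4 spans 1103982 to 1106791 on chromosome 19 and overlaps no other gene.

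**Figure D3:**
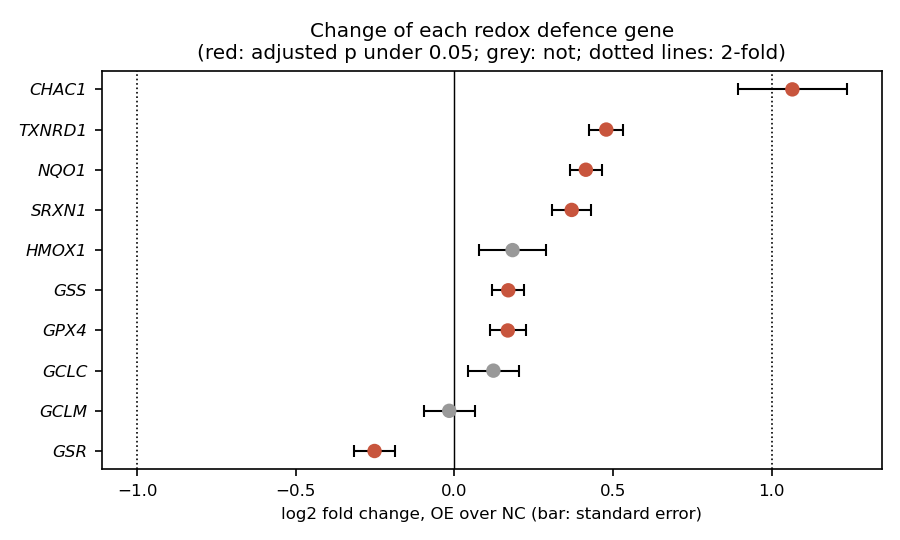
Log2 fold change of OE over NC for the 10 redox defence genes, with bars of 1 standard error, in order of size; red points passed an adjusted p of 0.05 and dotted lines mark 2-fold. CHAC1 at 1.07 lies beyond the 2-fold line, TXNRD1, NQO1 and SRXN1 lie between 0.37 and 0.48, and GSR lies at −0.25.

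On the FPKM scale the order of the genes by level was nearly the same in both groups. In NC it ran from GPX4 at 317 ± 19.2 (SD, n = 3) and TXNRD1 at 137 ± 1.95, through NQO1 at 31.5 ± 0.896, GSS at 13.8 ± 0.647, SRXN1 at 13.7 ± 0.432 and GSR at 10.5 ± 0.504, down to HMOX1 at 3.06 ± 0.221, GCLM at 2.68 ± 0.13, GCLC at 1.83 ± 0.119 and CHAC1 at 0.75 ± 0.0781. Among neighbours in this order, GSS and SRXN1 alone had NC samples that overlapped in FPKM. In OE no neighbours overlapped, and SRXN1 at 17.9 ± 1.01 stood above GSS at 15.7 ± 0.384. GPX4 and TXNRD1, both selenoproteins, together made up 85.4% ± 0.133 (SD, n = 3) of the summed FPKM of the 10 genes in NC and 85.4% ± 0.189 in OE. The FPKM of GSR over that of TXNRD1, the paired reductases of glutathione and thioredoxin, was 0.0762, 0.0724 and 0.0819 in NC and 0.0489, 0.0485 and 0.0418 in OE. All OE samples were lower in this ratio, with p = 0.1 in the exact permutation test (two-sided), the least this design can reach. Without overlap in FPKM, GSR was lower and TXNRD1 higher in OE, so this separation and its p were fixed by the single genes. The ratio is a description and adds no evidence to theirs. TXNRD1 gained 56.6 and GPX4 43.97 in mean FPKM, while CHAC1, with the largest fold change, gained 0.85.

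**Figure D4:**
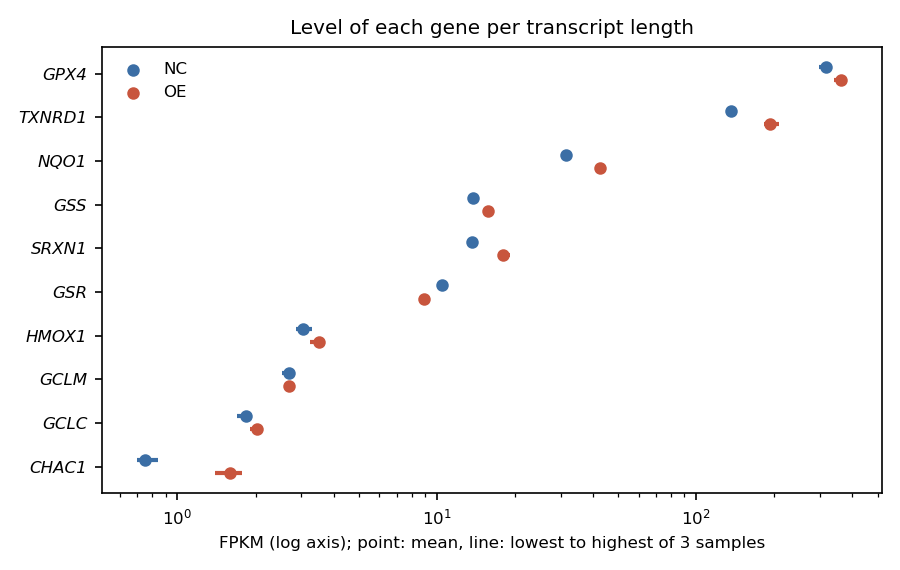
FPKM of the 10 genes on a log axis, with the mean as a point and the lowest to highest of 3 samples as a line, NC and OE side by side. GPX4 and TXNRD1 lie above 100, NQO1 between 30 and 50, and HMOX1, GCLM, GCLC and CHAC1 below 4.

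The regulators of NRF2 were read from the same fit. Of 18 tested, 11 rose (61.1%) and 3 fell (16.7%), with a median log2 fold change of 0.17 and none past 2-fold. Over all tested genes, 24.9% rose and 23.7% fell. With each sample left out, 8 to 10 of the regulators rose and 2 to 3 fell. NFE2L2, the gene of NRF2 itself, had a CPM of 75.5, 79.6 and 82.4 in NC and 95.8, 101 and 98.1 in OE, so the groups did not overlap. Its log2 fold change was 0.31 ± 0.05 (SE, edgeR, adjusted p = 4.3e-05). KEAP1, which marks NRF2 for degradation, had a log2 fold change of 0.10 (edgeR, adjusted p = 0.18), and BACH1, a repressor that competes for the same DNA elements, had −0.04 (edgeR, adjusted p = 0.78). BACH1 changed sign without OE replicate 2, to 0.11. SQSTM1, an autophagy receptor that binds KEAP1, rose by 0.87 on the log2 scale, and NFE2L1, a related factor that controls proteasome genes, by 0.91. MAFF, a small MAF partner, rose by 0.35, and NFE2L3 by 0.49. Of the other small MAF genes, MAFG rose by 0.20 (edgeR, adjusted p = 0.022) and MAFK fell, with a log2 fold change of −0.48 (edgeR, adjusted p = 9.2e-06). DPP3 (−0.35) and RBX1 (−0.25) fell as well. MAFG, MAFK, DPP3 and RBX1 were named after their values were seen. CREBBP, a histone acetyltransferase that acts as a coactivator, rose by 0.80.

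Among 29 other NRF2 targets tested, 5 rose (17.2%), 14 fell (48.3%) and 10 did not pass the test, with a median of −0.15. Over all tested genes, 24.9% rose and 23.7% fell. With each sample left out, 11 to 13 of these targets fell. Those that fell included TKT, PGD and TALDO1 of the pentose phosphate pathway, with log2 fold changes of −0.54, −0.28 and −0.16. TALDO1 passed with an adjusted p of 0.03 (edgeR). PGD and TALDO1 were added to the named genes after their values were seen. AKR1B1, aldose reductase, was the only member called lower, with a CPM of 498, 464 and 469 in NC and 244, 239 and 212 in OE. Without OE replicate 3 its log2 fold change of −1.04 became −0.98, short of the 2-fold limit. ABHD4, a lipase, fell by 0.50 on the log2 scale. Among those that rose were SLC48A1, a haem transporter, with a log2 fold change of 0.85, and BLVRB, a biliverdin reductase, with 0.67. The ferritin heavy chain FTH1, which stores iron, rose from a CPM of 2617 ± 143 (SD, n = 3) to 3398 ± 255, with a log2 fold change of 0.38. Its partner FTL had a log2 fold change of 0.16 (edgeR, adjusted p = 0.046), which did not hold without NC replicate 2 (0.11), NC replicate 3 (0.18), OE replicate 1 (0.18) or OE replicate 2 (0.08). The count of those that rose was 3 without NC replicate 2, NC replicate 3, OE replicate 1 or OE replicate 2.

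Cystine and cysteine supply, which feeds the ligase with its limiting amino acid, held large increases. Of 9 tested genes 7 rose (77.8%) and 1 fell (11.1%), with a median log2 fold change of 0.71, the value of SLC1A5. Over all tested genes, 24.9% rose and 23.7% fell. This list was chosen with earlier results of these data known, so its counts and median are a description. The gene that did not pass was SLC33A1 (log2 fold change −0.16, edgeR, adjusted p = 0.40), an acetyl-CoA transporter that is not known to supply cystine and was kept in the counts. SLC7A11, the cystine importer and itself a target of NRF2 and ATF4, had a CPM of 4.31, 4.83 and 4.48 in NC and 14.5, 13.8 and 16.9 in OE. All OE samples stood far above NC, with a fold change of 3.32 (log2 1.73, SE 0.11, edgeR, adjusted p = 3.2e-11). SLC3A2, the heavy chain that carries SLC7A11 to the membrane, went from a CPM of 69.9 ± 2.60 (SD, n = 3) to 185 ± 8.73, a log2 fold change of 1.40. CTH, which forms cysteine from cystathionine, had 1.40 as well, SLC1A5 0.71 and SLC1A4 0.73. The lysosomal cystine exporter CTNS had 0.36 and CBS, the enzyme before CTH, 0.39. CTNS did not pass without OE replicate 2 (0.29), nor CBS without NC replicate 1 (0.38), NC replicate 2 (0.36), OE replicate 1 (0.28) or OE replicate 2 (0.35). SLC1A1, a transporter of glutamate and cysteine, was called lower, its CPM being 2.65 ± 0.209 (SD, n = 3) without and 1.05 ± 0.286 with the *PPM1K* plasmid.

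The ATF4 branch of the integrated stress response, which is known to induce CHAC1 and SLC7A11, was read as a list of 10 regulators, all tested. Of these 8 rose (80%) and 2 fell (20%), with a median log2 fold change of 0.99. Over all tested genes, 24.9% rose and 23.7% fell. TRIB3, a pseudokinase, had a CPM of 21.7, 23.2 and 21.8 in NC and 114, 118 and 107 in OE, and was called higher, as were DDIT3, the factor CHOP (log2 fold change 1.08), CEBPG (1.05), SESN2 (1.87) and NUPR1 (2.06). The study's RT-PCR, run on the RNA that was sequenced, went the other way for TRIB3, with a significant decrease. For NUPR1 it gave a significant increase. CEBPB, a partner of ATF4, rose by 0.93 and DDIT4, an inhibitor of mTORC1, by 0.39. ATF4 itself, which is controlled mainly at translation, had a log2 fold change of 0.28. ATF3 and ATF5 fell, by 0.29 and 0.32 on the log2 scale, ATF5 being named after its values were seen. These genes were known to have changed in these data when the list was written, so the counts are a description.

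Genes that break down or use glutathione showed no common direction. Of 18 tested, 3 rose (16.7%) and 5 fell (27.8%), with a median of −0.06. Over all tested genes, 24.9% rose and 23.7% fell. GPX3, the secreted glutathione peroxidase of the proximal tubule, was called lower, with a CPM of 47.9, 47.6 and 52.2 in NC and 23.4, 21.0 and 20.7 in OE. GGT1, the surface enzyme that opens extracellular glutathione, was called lower too, at a CPM of 1.35 ± 0.328 (SD, n = 3) and 0.633 ± 0.145, but not without NC replicate 2 or OE replicate 2, where its log2 fold change of −1.09 became −0.89 and −0.98. GLRX2, a mitochondrial glutaredoxin, rose by 0.97 on the log2 scale, CNDP2, a dipeptidase, by 0.25, and OPLAH, which recovers glutamate from 5-oxoproline, fell by 0.59. Of 11 tested glutathione S-transferases, 2 rose (18.2%) and 5 fell (45.5%), with a median of −0.11. Those that rose were GSTCD (log2 fold change 0.40) and GSTO2 (0.38), named after their values were seen, and their number was 1 without NC replicate 1 or OE replicate 2 and 3 without NC replicate 3 or OE replicate 3. GSTP1, the most abundant of them in FPKM, had a CPM of 407, 359 and 385 in NC and 238, 243 and 218 in OE. The groups were wide apart, and the log2 fold change was −0.72 ± 0.06 (SE, edgeR, adjusted p = 1.5e-09). GSTK1, MGST3 and GSTM3 fell by 0.52, 0.46 and 0.34 on the log2 scale.

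In the thioredoxin and peroxiredoxin list, 4 of 17 tested genes rose (23.5%) and 7 fell (41.2%), with a median of 0.06. Over all tested genes, 24.9% rose and 23.7% fell. TXNIP, which binds thioredoxin and restrains it, was called higher, with a CPM of 15.1, 17.7 and 15.96 in NC and 52.3, 50.7 and 49.2 in OE. TXN itself, the substrate of TXNRD1, had a log2 fold change of 0.06 (edgeR, adjusted p = 0.42). The peroxide-removing PRDX6, PRDX2 and PRDX3 fell by 0.71, 0.64 and 0.29 on the log2 scale. PRDX1 and PRDX4 fell by 0.26 and 0.19, while PRDX5 rose by 0.30, from a mean CPM of 230 in NC to 283 in OE, without overlap. These 3 were named after their values were seen. Also lower was MSRB1, a methionine sulfoxide reductase with selenocysteine, with a log2 fold change of −0.71. Of 6 superoxide dismutase and catalase genes none rose and 4 fell (66.7%). SOD3, the extracellular form, was called lower with a log2 fold change of −1.09 (−0.99 without NC replicate 1, short of 2-fold), and CAT, catalase, had −0.59. SOD1 and SOD2 had −0.14 each, with edgeR's adjusted p at 0.031 and 0.027. SOD1 did not pass without NC replicate 1, NC replicate 3, OE replicate 2 or OE replicate 3 (−0.16 to −0.10), nor SOD2 without NC replicate 1, NC replicate 2, OE replicate 1 or OE replicate 2 (−0.15 to −0.11), which left 2 to 3 genes that fell.

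Among 15 tested genes of ferroptosis and lipid peroxide control, the setting in which GPX4 acts, 5 rose (33.3%) and 4 fell (26.7%), with a median of −0.03. Over all tested genes, 24.9% rose and 23.7% fell. HSPB1, a small heat shock protein, fell by 0.94 on the log2 scale, ALOX5, a lipoxygenase, by 0.90 and ACSL4, which loads membranes with polyunsaturated fatty acids, by 0.73. DHODH, a mitochondrial enzyme of pyrimidine synthesis, rose by 0.48. The count that rose was 3 without NC replicate 2, NC replicate 3, OE replicate 1 or OE replicate 2. Of 12 haem genes, 4 rose (33.3%) and 5 fell (41.7%), with a median of −0.04. BLVRA, the other biliverdin reductase, fell by 0.51, FLVCR1, a haem exporter, by 0.51 and ALAD by 0.41, while ABCB6, a porphyrin transporter, rose by 0.48. Of 10 genes of selenocysteine insertion, which GPX4 and TXNRD1 need to be made, 2 rose (20%) and 3 fell (30%), with a median of 0.13. SEPHS2, which makes the selenium donor, rose by 0.67 and PSTK by 0.39, and TRNAU1AP and LRP8, a selenoprotein P receptor, fell by 0.58 and 0.54.

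**Figure D5:**
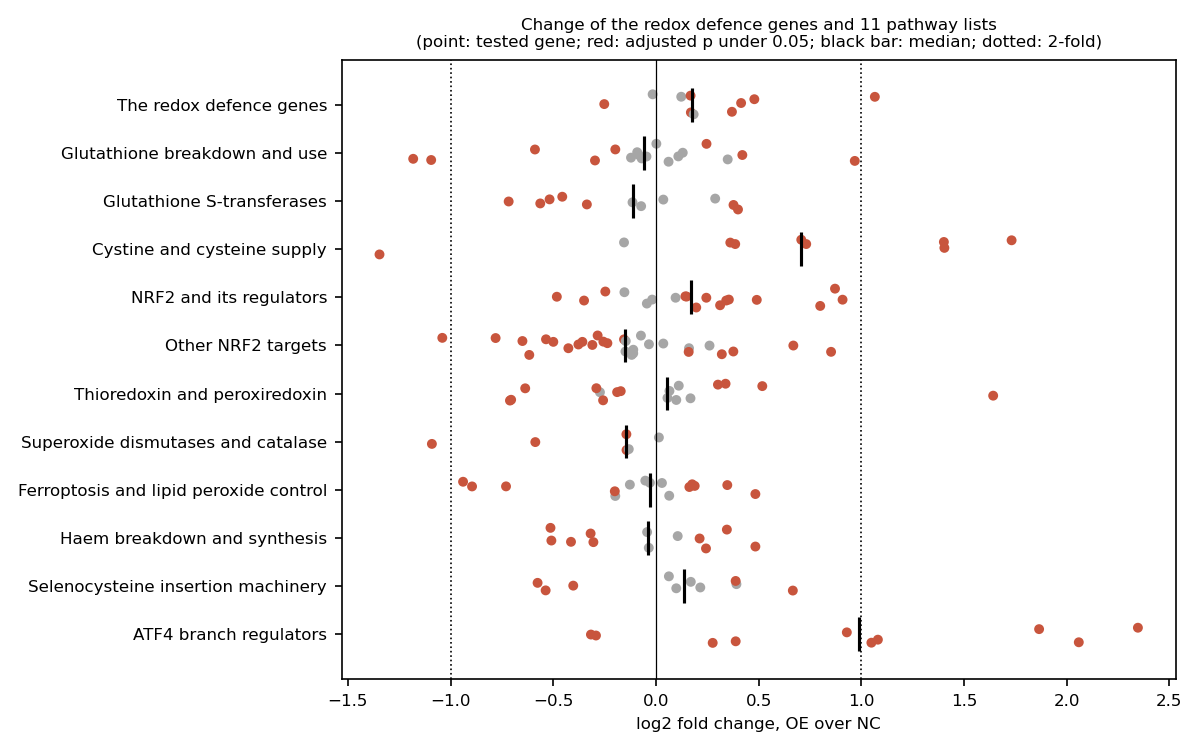
Log2 fold change of OE over NC for every tested gene of the redox defence genes and of 11 lists, a row each, with the median as a black bar and red points for an adjusted p under 0.05. The medians of cystine supply (0.71) and of the ATF4 branch (0.99) lie to the right, and that of the other NRF2 targets (−0.15) to the left of 0.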

How the data were processed

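Samples were grouped by their genotype entries into 3 NC and 3 OE samples of HK-2 cells. The authors trimmed reads with FASTX-Toolkit, mapped them with HISAT2 to GRCh38 and counted, for each gene, those with a unique position, from stranded mRNA libraries. The deposited counts hold 31369 genes without normalization, and the deposited FPKM values, which the authors computed from the same reads, hold 30896 genes. The submitters' processing notes list mm10 beside GRCh38, and all gene identifiers used here are human. The annotation, counting program and strand setting are not given in the sources used here.

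Counts were tested with edgeR 4.0.16 in R 4.3.3 (filterByExpr, TMM, glmQLFit and glmQLFTest) over 15878 genes with Benjamini-Hochberg adjustment, and CPM was computed from them. Standard errors were derived from the log2 fold change and its F statistic. Scripts were tested on simulated data. Alternatives were DESeq2 1.42.0, limma 3.58.1 on log2(FPKM + 1) and log2(FPKM + 0.1), other scalings and filters, a replicate block and each sample left out. Of 175 genes in 11 lists, 155 were tested. The 10 genes and the lists were chosen with earlier results of these data known. Named are the always-listed regulators, all called list members, the 3 genes most like CHAC1 and up to 4 others of the smallest adjusted p per list. Not every gene of this rule is reported here. Other list members are in the counts only, except those said to be named after their values were seen. Gene positions are from GENCODE release 44, and motif windows from RefSeq starts and the GRCh38 sequence, read with pysam 0.24.0. Replicates were not copies of a library: their mean chi-square per gene was 5.13 to 11.8. At these depths counting error is small except for low genes such as CHAC1. Plots used matplotlib 3.10.9 (Python 3.11.15).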

Additional observations from a re-analysis of the deposited data

How the results depend on the processing

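Over 16 alternatives, 79 single genes gave 1264 values, of which 1140 kept direction and side of the threshold, 118 lost an adjusted p under 0.05 (65 of them in the test against a 2-fold change) and 6 changed sign. PPM1K stayed between 6.08 and 6.75 with each sample left out. The count of redox genes called higher was 0 to 1 with each sample left out, 0 in the test against a fold change of 2 and 0 in each limma fit. The count that rose was 5 to 6 and GSR fell under every alternative except the test against 2-fold, where GSR had an adjusted p of 1.0. GCLM changed sign in the limma fits, to 0.0042 on log2(FPKM + 1), 0.0058 on log2(FPKM + 0.1) and 0.0042 without a filter, and ranged from −0.051 to 0.019 with each sample left out. BACH1 ranged from −0.16 to 0.11.

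All genes called were 68 higher and 118 lower in the test against 2-fold, 56 and 69 by limma on log2(FPKM + 1), 56 and 67 without its filter, where 2499 genes were lower at an adjusted p under 0.05, and 377 lower by limma on log2(FPKM + 0.1). With each sample left out, glutathione S-transferases that rose were 1 to 3, other NRF2 targets that rose 3 to 5, superoxide dismutases and catalase that fell 2 to 3, and ferroptosis genes that rose 3 to 5. In the same fits, other NRF2 targets that fell were 11 to 13 and NRF2 regulators that rose 8 to 10. DESeq2 gave 1 glutathione S-transferase that rose. Other NRF2 targets that rose were 3 with at least 10 counts in every sample, with upper quartile scaling and in each limma fit, and ferroptosis genes that rose were 3 with upper quartile scaling. The limma fits with a filter gave 1 glutathione S-transferase that rose and 2 superoxide dismutase and catalase genes that fell. Without a filter limma gave 0 and 2, with 9 other NRF2 targets and 4 thioredoxin genes that fell, 2 ferroptosis genes that rose and 1 ATF4 branch gene that fell. The log2(FPKM + 1) scale compresses low values by construction. The causes of the other shifts were not tested. Of 180 medians, 24 moved by more than the SD over OE samples, and the ferroptosis median changed sign in 4. The median of all tested genes was −0.13 by DESeq2 and without a filter on low counts.

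With the replicate block, GPX4 had an adjusted p of 0.061, other NRF2 targets that rose were 3 and superoxide dismutases and catalase that fell were 2. Between samples that share a number, deviations from the group mean correlated at −0.0147, −0.133 and −0.13, and none of the numbers 1 to 3 correlated best with itself. No effect shared by number was seen. With 3 samples a group the deviations cancel within each group, so these values cannot show that the samples were not paired. Depth limits CHAC1 most, with 56 to 142 counts a sample.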
